A study of Mus musculus with 12 samples.

Results

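Solute carrier (SLC) genes encode the membrane proteins that move nutrients, ions, vitamins, metals and metabolites into and out of cells and organelles. The genes described here are every protein-coding gene whose symbol starts with Slc and a digit in the deposited expression tables of lung CD31+ cells. There were 148 of them among 9338 listed genes, of which 6886 were protein-coding, and they fell into 41 SLC families. A further 2 genes with such a symbol were of another gene type and were left out. All 148 were found in GENCODE M21. The family symbol does not always mean a transporter: Slc9a3r1 and Slc9a3r2 encode scaffold proteins that hold sodium-proton exchangers at the membrane, and Slc7a6os, named here after its values were seen, is the gene on the strand opposite Slc7a6.

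RNA was sequenced from 12 male C57Bl/6J mice in 4 groups of 3, with 1 library for each mouse. All mice carried floxed Tet2 alleles (TET2 fl/fl) and all were injected with tamoxifen at 40 mg/kg on 3 days, at an age of 6 to 8 weeks. TET2 KO mice also carried Cdh5-CreERT2, a recombinase that tamoxifen activates and that the Cdh5 promoter confines to endothelial cells (ECs), whereas WT mice lacked it, so WT here means Cre-negative littermates with intact floxed alleles. Mice of each genotype were kept on chow (13% of energy from fat) or on a high-fat diet (HFD, 60% of energy from fat) for 20 weeks. Lung cells were taken at 30 weeks of age with magnetic beads against CD31, an adhesion molecule of ECs that some blood cells carry too. TET2 oxidizes methylated cytosine in DNA, and the floxed part of the gene is 1 exon. Tet2 itself was listed only for HFD against chow in WT, with FPKM of 4.73, 5.17 and 5.15 on chow and 6.08, 6.32 and 6.71 on HFD, so loss of the gene product could not be checked in the TET2 KO libraries.

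Cells take up essential amino acids, glucose and vitamins through plasma membrane carriers, many of them driven by the sodium gradient or by exchange for another solute. Mitochondrial carriers of the Slc25 family pass metabolites across the inner mitochondrial membrane, and Slc35 carriers bring nucleotide sugars into the Golgi for glycosylation. In the lung, ECs are known for glucose uptake through Slc2a1 and for clearing serotonin from the blood through Slc6a4, and alveolar type 2 cells for phosphate uptake through Slc34a2.

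Reads counted on genes ranged from 36.7 M to 56.8 M a library, the most in WT HFD replicate 1, and size factors from 0.883 to 1.37. Values are FPKM (fragments per kilobase of gene, scaled to sequencing depth), given in the order of replicates 1, 2 and 3. Each table lists only genes that the authors' own test put under an unadjusted p of 0.05, so a gene has values only for the groups of the tables that list it, and every gene described was chosen with the same contrast that is described. Of the 148 genes, 75 were in 1 table, 58 in 2, 11 in 3 and 4 in all 4 tables, and 24 had values in all 12 libraries. In these bulk libraries, fewer cells of a type and less RNA per cell cannot be told apart. All 14 endothelial marker genes were listed for HFD against chow in WT, and their summed level was 361, 313 and 878 FPKM in WT chow and 1667, 1325 and 945 FPKM in WT HFD, so that WT chow replicate 3 lay far above the other WT chow libraries. Marker genes of other cell types were at high levels too. In WT chow, Chil3 of macrophages had 1489, 2802 and 2382 FPKM and Scgb1a1 of the airway 4165, 5481 and 5467 FPKM. The preparation was therefore not pure, and without unsorted libraries its enrichment for ECs could not be measured.

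The largest set of SLC genes came from HFD against chow in WT. Of the 121 listed there, edgeR's quasi-likelihood test put 46 higher and 65 lower on HFD at an unadjusted p under 0.05, the rule by which a gene is called higher or lower here. Of all 7330 listed genes, 42.4% were called higher and 49.2% lower, so the SLC counts sit near the background that the listing fixes. In normalized counts, the measure used for overlap throughout, the groups did not overlap for 111 of the 121 SLC genes, against 86.5% of all listed genes. After Benjamini-Hochberg adjustment over the authors' whole test family, 7 SLC genes remained higher and 20 lower. Variances were estimated on the listed genes only, chosen by the same contrast, so the adjusted values give no error rate over all genes. Of all 7330 listed genes, 614 remained higher and 749 lower, 18.6% in either direction. DESeq2 on the same counts gave 87 adjusted calls among the SLC genes and 4546 among all listed genes, and limma-trend 37 and 1941. For TET2 KO against WT on HFD, 66 SLC genes were listed, with 32 called higher (background 43.1%) and 20 lower (39.1%). For HFD against chow in TET2 KO, 32 were listed, with 5 called higher (29.3%) and 21 lower (47.7%). For TET2 KO against WT on chow, 21 were listed, with 2 called higher (30.6%) and 14 lower (46.0%). The groups did not overlap for 41 of 66, 22 of 32 and 15 of 21 SLC genes in these comparisons, beside 74.7%, 72.6% and 74.7% of all listed genes. In these 3 comparisons no SLC gene had an adjusted p under 0.05 with edgeR, whereas DESeq2 on the same counts gave 10, 2 and 1 and limma-trend gave 0, 0 and 0. The median log2 fold change of the listed SLC genes was -0.39 for HFD against chow in WT, 0.44 for TET2 KO against WT on HFD, -0.51 for HFD against chow in TET2 KO and -0.61 for TET2 KO against WT on chow, beside -0.32, 0.33, -0.51 and -0.37 for all listed genes. Many of these calls were lost when 1 library was left out, a refit that also weakens the test by leaving its group with 2. On HFD, TET2 KO against WT had 16 calls without WT HFD replicate 1, 31 without WT HFD replicate 3, 28 without TET2 KO HFD replicate 1 and 24 without TET2 KO HFD replicate 2. On chow it had 5 calls without WT chow replicate 2, 7 without TET2 KO chow replicate 1 and 9 without TET2 KO chow replicate 2. For diet in TET2 KO there were 10 calls without TET2 KO chow replicate 1, 11 without TET2 KO chow replicate 2, 15 without TET2 KO HFD replicate 1 and 13 without TET2 KO HFD replicate 3. For diet in WT the adjusted edgeR calls went from 27 to 0 without WT chow replicate 2 or any 1 of the WT HFD libraries, and to 11 without WT chow replicate 1.

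The genes were grouped by family, each group named after the main substrate of its families, so a group can hold members with other substrates. Amino acid carrier families in WT on HFD included 5 called higher and 15 called lower of 22 listed (median log2 fold change -0.40, beside -0.32 with 42.4% called higher and 49.2% lower over all listed genes). The lower ones include Slc7a6os, placed here by its symbol alone, and the serotonin transporter Slc6a4. The higher ones include Slc43a3 and Slc6a12, which carry purine nucleobases and betaine. Sodium-proton exchangers with their scaffold proteins included 1 higher and 5 lower of 6 (median -0.96). The choline and fatty acid group had 5 higher and 2 lower of 7 (median 0.70), and 3 of the 7 were Slc10 genes of the bile acid transporter family (Slc10a1, with Slc10a4 and Slc10a7, both named after their values were seen). The sugar group had 7 higher and 7 lower of 15 (median 0.36), and among its Slc5 members Slc5a5 carries iodide, Slc5a6 vitamins and Slc5a12 lactate. Nucleotide sugar carriers of the Slc35 family included 5 higher and 3 lower of 9 (median 0.33). Mitochondrial carriers included 5 higher and 8 lower of 14 (median -0.47), monocarboxylate carriers 3 and 5 of 8 (median -0.59) and metal carriers 4 and 4 of 10 (median -0.10). Differences between groups were not tested. The values of most groups spread to either side of 0, as the plot of log2 fold change by group shows.

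**Figure D1:**
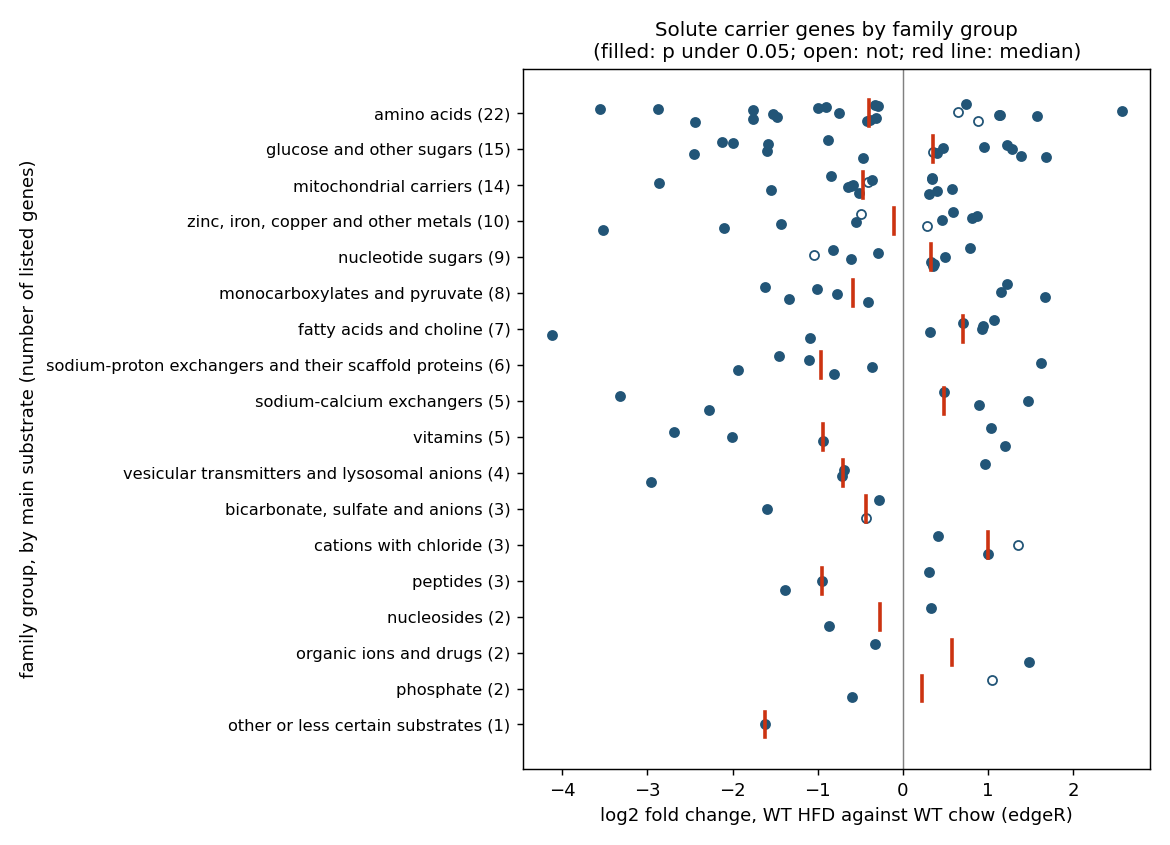
Log2 fold change of each listed SLC gene for WT HFD against WT chow (x axis, edgeR), by family group named after its main substrate (y axis, number of listed genes in brackets). Filled points passed p under 0.05, open points did not, and red lines are medians. The amino acid group (22 genes) lies mostly below 0 and the choline and fatty acid group (7 genes) mostly above.

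Several carriers that bring amino acids into cells were lower on HFD in WT. Slc7a5 (chr8:121881150-121907694), the large neutral amino acid exchanger that supplies leucine, had FPKM of 26.4, 25 and 24 in WT chow and 10.03, 16.3 and 13.8 in WT HFD. The groups did not overlap, and the log2 fold change was -0.90 ± 0.18 (SE, edgeR adjusted p = 0.042). Slc1a5, a glutamine transporter, fell from 59.1, 53.6 and 50.3 FPKM in WT chow to 40.4, 42.2 and 38.8 FPKM in WT HFD, a log2 fold change of -0.42 ± 0.11 (edgeR adjusted p = 0.0654). Slc38a2, a sodium-coupled carrier of small neutral amino acids, had the highest mean FPKM of all 148 genes over the libraries with values. Its FPKM was 114, 111 and 131 in WT chow and 73.5, 101 and 96.6 in WT HFD, a log2 fold change of -0.39 ± 0.16 (edgeR adjusted p = 0.17). Each of the 3 WT HFD libraries lay below each WT chow library in these genes. Among genes at lower levels, the glutamate carrier Slc1a2 fell by more (log2 fold change -2.44 ± 0.56, edgeR adjusted p = 0.0511), from 0.233, 0.666 and 0.795 to 0.0657, 0.077 and 0.169 FPKM. Slc7a5 overlaps the annotated gene Gm20388 on the opposite strand, and whether reads were counted by strand is not given in the sources used here. An annotated gene on the opposite strand overlaps 55 of the 148 genes, and only some of these overlaps are named here.

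Of these, Slc1a5, Slc7a5 and Slc38a2 were called higher in TET2 KO on HFD, whereas Slc1a2 did not pass there. This comparison shares the WT HFD libraries with the preceding one, so the values are set side by side and are not independent. Slc1a5 stood at 71.2, 60.3 and 53.2 FPKM in TET2 KO HFD, above every WT HFD library (log2 fold change 0.61 ± 0.15, edgeR adjusted p = 0.261). Slc7a5 reached 30.8, 24.4 and 14.2 FPKM in TET2 KO HFD, with replicate 3 inside the WT HFD range (log2 fold change 0.80 ± 0.31, edgeR adjusted p = 0.296). Slc38a2 reached 149, 139 and 95.7 FPKM, again with replicate 3 inside the WT HFD range (log2 fold change 0.50 ± 0.22, edgeR adjusted p = 0.32). Slc7a1, the main importer of arginine and lysine, was listed only here and had 6.78, 8.29 and 7.41 FPKM in WT HFD and 11, 9.98 and 8.61 FPKM in TET2 KO HFD (log2 fold change 0.40 ± 0.16, edgeR adjusted p = 0.296). The call for Slc7a5 between genotypes was lost without TET2 KO HFD replicate 1 (0.53) or 2 (0.76), or WT HFD replicate 1 (0.62) or 3 (0.82). That for Slc38a2 was lost without TET2 KO HFD replicate 1 (0.38) or 2 (0.44), or WT HFD replicate 1 (0.37) or 2 (0.60) or 3 (0.55), and its call for diet without WT HFD replicate 1 (-0.26) or 3 (-0.44), or WT chow replicate 1 (-0.41) or 2 (-0.44) or 3 (-0.31). That for Slc7a1 was lost without TET2 KO HFD replicate 1 (0.31) or 2 (0.39), or WT HFD replicate 1 (0.33) or 3 (0.39). The calls of Slc1a5 and, for diet, of Slc7a5 held without each library in turn.

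**Figure D2:**
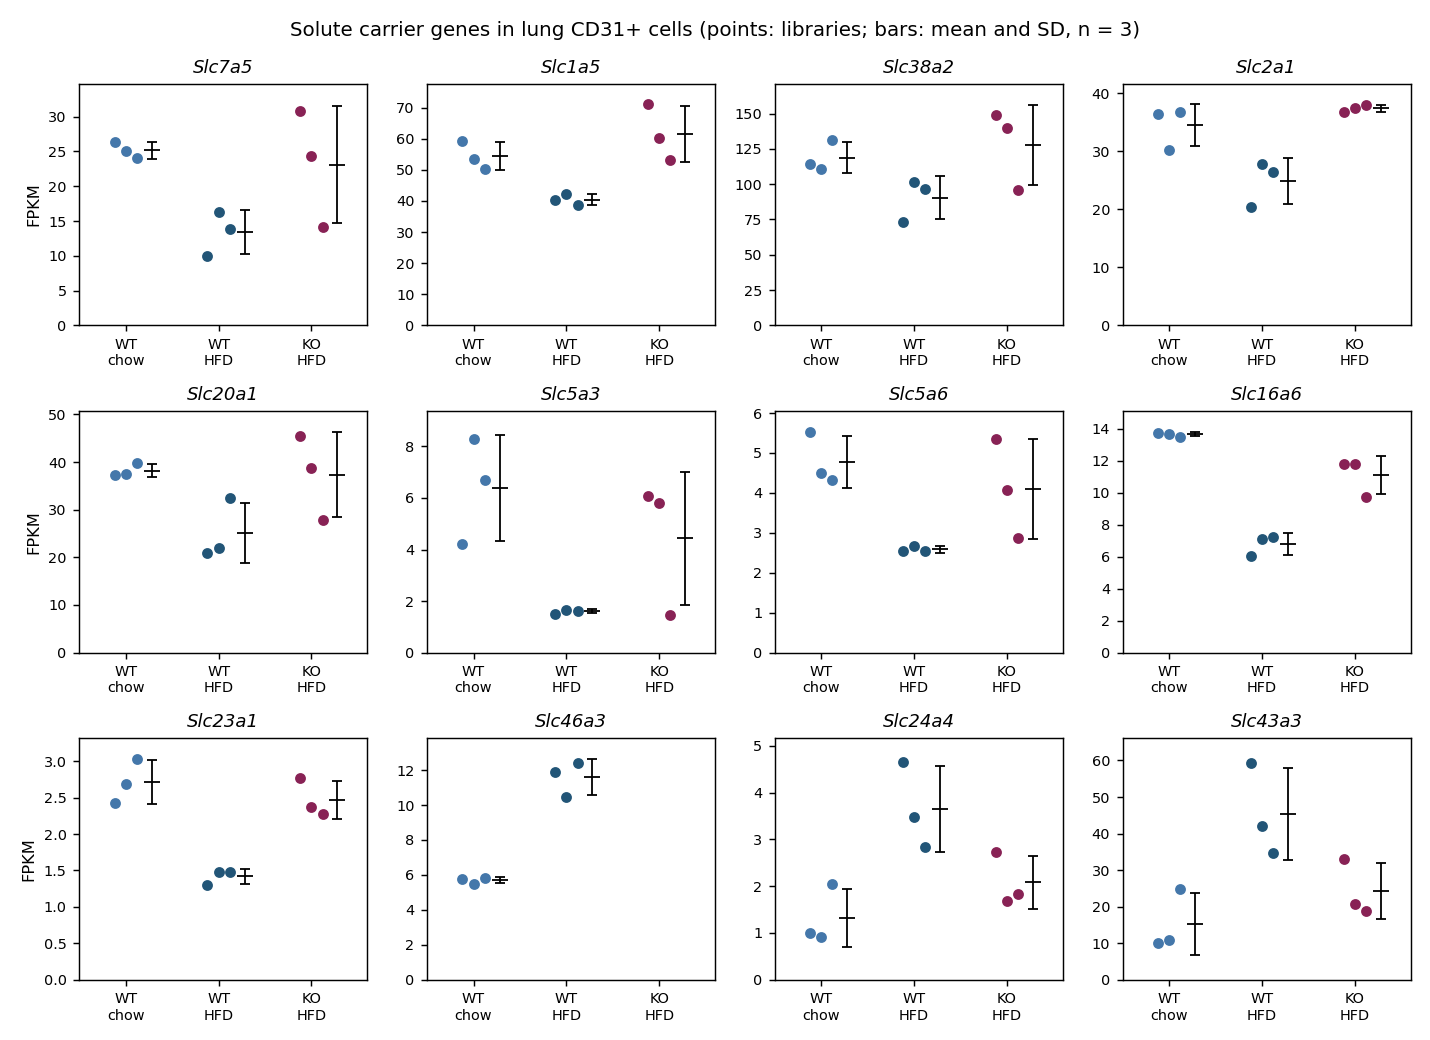
FPKM (y axis, linear and starting at 0) of 12 SLC genes in WT chow, WT HFD and TET2 KO HFD; each point is 1 library and bars are mean and SD (n = 3). Slc7a5 to Slc23a1 lie lower in WT HFD than in WT chow, Slc46a3 (listed for the diet comparison in WT only), Slc24a4 and Slc43a3 lie higher in WT HFD, and TET2 KO HFD replicate 3 sits nearest to WT HFD in several panels, as in Slc7a5 and Slc5a3.

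Slc7a11, the cystine-glutamate exchanger that feeds glutathione synthesis, differed widely among the WT HFD libraries. Its FPKM was 11.6, 16.7 and 17 in WT chow and 1.34, 3.05 and 8.9 in WT HFD, and the groups did not overlap (log2 fold change -1.76 ± 0.62, edgeR adjusted p = 0.122). The call was lost without WT HFD replicate 2 (-1.55), or WT chow replicate 2 (-1.68). Retnlg, the only listed one of 8 neutrophil marker genes, followed the same order of WT HFD libraries but the reverse order in WT chow. Its FPKM was 488, 361 and 269 in WT chow and 53.3, 121 and 229 in WT HFD, and its part in the Slc7a11 values was not tested. Genes of amino acid uptake are known targets of the stress-induced factor ATF4, which binds CCAAT box enhancer-ATF response elements, so the 250 bases before the Slc7a11 start (RefSeq, GRCm38.p6, chr3:50443614-50443863, minus strand, written 5′ to 3′ along the gene) are shown with the matches to TGATGNAA on either strand in capitals.
Slc7a11: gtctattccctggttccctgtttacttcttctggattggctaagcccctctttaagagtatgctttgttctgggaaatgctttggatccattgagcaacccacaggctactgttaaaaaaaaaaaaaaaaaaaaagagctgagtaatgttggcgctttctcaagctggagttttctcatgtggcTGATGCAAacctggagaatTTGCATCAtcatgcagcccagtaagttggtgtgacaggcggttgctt
The 2 matches begin 66 and 47 bases before the start and read on opposite strands. The motif was chosen after the values were seen. It occurs in 3.45% of all 32851 promoter windows of this length and at least 2 matches in 0.0396%, while 5 of 154 windows of SLC genes (3.25%) hold it. The promoter table covers 113 of the 148 genes, and Slc7a5, Slc1a5 and Slc5a2 are not among them. A match is a run of letters and does not show binding.

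Members of the sugar carrier families moved in both directions in WT. Slc2a1, the main glucose transporter of ECs and of many other cells, had 36.4, 30.3 and 36.8 FPKM in WT chow, 20.4, 27.8 and 26.5 in WT HFD and 36.8, 37.5 and 37.9 in TET2 KO HFD. All WT HFD libraries lay below those of the other groups listed (log2 fold change -0.47 ± 0.15 for diet in WT, edgeR adjusted p = 0.106, and 0.59 ± 0.16 for TET2 KO against WT on HFD, adjusted p = 0.261). The diet call was lost without WT HFD replicate 1 (-0.34), or WT chow replicate 1 (-0.43) or 3 (-0.41). Slc5a3, which imports the osmolyte myo-inositol, fell from 4.2, 8.27 and 6.71 to 1.51, 1.67 and 1.63 FPKM on HFD in WT (log2 fold change -1.99 ± 0.24, edgeR adjusted p = 0.0357). In TET2 KO HFD it was at 6.06, 5.79 and 1.46 FPKM, so replicates 1 and 2 lay within the WT chow range and replicate 3 just below the WT HFD range (log2 fold change 1.48 ± 0.48 against WT HFD, edgeR adjusted p = 0.267). Slc5a5, the iodide importer of the same family, fell from 0.296, 0.521 and 0.692 to 0.0842, 0.121 and 0.139 FPKM (log2 fold change -2.13 ± 0.42, edgeR adjusted p = 0.041).

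Other members of these families were higher on HFD in WT. Slc2a10, a facilitative glucose transporter, rose from 0.345, 0.214 and 0.553 to 1.42, 1.3 and 0.836 FPKM (log2 fold change 1.68 ± 0.39, edgeR adjusted p = 0.0526). In TET2 KO HFD it was at 0.735, 0.37 and 0.471 FPKM, below every WT HFD library (-1.17 ± 0.34, adjusted p = 0.261). Slc2a12, of the same family, rose from 0.124, 0.173 and 0.115 to 0.428, 0.233 and 0.409 FPKM (1.39 ± 0.35, edgeR adjusted p = 0.0595). Slc45a3 rose from 0.416, 0.55 and 0.453 to 1.11, 0.823 and 1.51 FPKM (1.28 ± 0.28, edgeR adjusted p = 0.0476). Slc5a12, which its family places among the sugar carriers though it is known for lactate, rose from 0.607, 0.583 and 0.764 to 1.98, 1.41 and 1.16 FPKM (1.23 ± 0.26, edgeR adjusted p = 0.0444). No WT chow library reached the WT HFD range in these 4 genes. Slc50a1, at much higher levels, rose from 32.7, 27.7 and 26.2 to 41.6, 43.1 and 35.4 FPKM (0.48 ± 0.13, edgeR adjusted p = 0.0741).

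The vitamin carriers Slc5a6 and Slc23a1 fell on HFD in WT and were called higher in TET2 KO on HFD. Slc5a6, which imports biotin and pantothenate, had 5.53, 4.49 and 4.31 FPKM in WT chow, 2.54, 2.68 and 2.54 in WT HFD and 5.36, 4.07 and 2.87 in TET2 KO HFD. Its log2 fold change was -0.88 ± 0.14 for diet in WT (edgeR adjusted p = 0.0366) and 0.67 ± 0.23 for TET2 KO against WT on HFD (adjusted p = 0.279), and the latter call was lost without TET2 KO HFD replicate 1 (0.42), or WT HFD replicate 1 (0.66) or 3 (0.66). Slc5a6 shares its locus with Atraid on the opposite strand, as Slc23a1 does with Paip2. Slc23a1, an ascorbate transporter, had 2.43, 2.69 and 3.02 FPKM in WT chow, 1.3, 1.48 and 1.47 in WT HFD and 2.77, 2.37 and 2.27 in TET2 KO HFD. Neither of its comparisons had overlapping groups (log2 fold change -0.93 ± 0.16, edgeR adjusted p = 0.0368, and 0.81 ± 0.17, adjusted p = 0.261). Slc23a3, a relative with no settled substrate, fell further, from 2.48, 3.44 and 5.48 to 0.715, 0.852 and 1.27 FPKM (-2.0 ± 0.36, edgeR adjusted p = 0.0371). Slc46a3, a lysosomal carrier, went the other way with very little spread, from 5.78, 5.5 and 5.8 FPKM in WT chow to 11.9, 10.4 and 12.4 in WT HFD (1.03 ± 0.12, edgeR adjusted p = 0.0357).

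Choline transporters were higher on HFD in WT. Slc44a2 rose from 30.5, 24.7 and 28.2 FPKM in WT chow to 46.4, 46.9 and 42 in WT HFD (log2 fold change 0.70 ± 0.12, edgeR adjusted p = 0.0368). Slc44a1 rose from 4.19, 3.85 and 5.82 to 9.56, 8.57 and 8.49 FPKM (0.95 ± 0.17, edgeR adjusted p = 0.038). It was at 6.67, 4.58 and 5.39 FPKM in TET2 KO HFD, below every WT HFD library (-0.67 ± 0.18, adjusted p = 0.261). Neither gene had overlapping groups in WT, and their calls held without each library in turn. Slc44a3, at lower levels, rose by 1.07 ± 0.33 (edgeR adjusted p = 0.0891). Slc10a1, known as the bile acid importer of liver and placed in this group by its family, fell from 1.32, 2.12 and 2.52 to 0.865, 0.989 and 0.928 FPKM (-1.09 ± 0.28, edgeR adjusted p = 0.0613).

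In the monocarboxylate family, Slc16a6 varied little within groups. Its FPKM was 13.8, 13.7 and 13.5 in WT chow, 6.01, 7.08 and 7.25 in WT HFD and 11.8, 11.8 and 9.74 in TET2 KO HFD, with no overlap between any of these groups. The log2 fold change was -1.0 ± 0.11 for diet in WT (edgeR adjusted p = 0.0357) and 0.72 ± 0.16 for TET2 KO against WT on HFD (adjusted p = 0.261), and both calls held without each library in turn. The gene overlaps Amz2 and Arsg on the opposite strand. Slc16a8, a lactate carrier, fell from 0.521, 0.67 and 0.586 to 0.224, 0.222 and 0.123 FPKM (-1.62 ± 0.32, edgeR adjusted p = 0.042). The lactate and pyruvate carrier Slc16a1 fell from 12.2, 10.4 and 11.1 to 7.02, 10.4 and 7.98 FPKM, and the groups touched, overlapping in normalized counts but not in FPKM (-0.40 ± 0.17, edgeR adjusted p = 0.168), a call lost without WT HFD replicate 1 (-0.29) or 3 (-0.36), or WT chow replicate 1 (-0.34) or 2 (-0.46) or 3 (-0.41). Slc16a3, the lactate exporter of glycolytic cells, was listed only for diet in TET2 KO, at 17.3, 34.5 and 22.2 FPKM on chow and 23.7, 69.4 and 47.3 on HFD. These ranges overlapped and the test was not passed (log2 fold change 0.92 ± 0.40, edgeR adjusted p = 0.873).

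Some SLC genes rose on HFD in WT and, on that diet, lay lower in TET2 KO, as did the endothelial marker genes. Slc9a3r2 (chr17:24639282-24650305), the scaffold protein of the exchanger Slc9a3, had 26.5, 31.3 and 60.1 FPKM in WT chow, 119.5, 58.6 and 53.6 in TET2 KO chow, 162, 108 and 92.7 in WT HFD and 87, 47.9 and 43.7 in TET2 KO HFD. WT HFD lay above WT chow in every library (1.63 ± 0.36, edgeR adjusted p = 0.0476) and above TET2 KO HFD in every library (-1.01 ± 0.32, adjusted p = 0.265). Slc43a3, an importer of purine nucleobases whose family otherwise carries amino acids, had 9.95, 10.9 and 24.9 FPKM in WT chow, 59.4, 42 and 34.8 in WT HFD and 33.1, 20.9 and 18.9 in TET2 KO HFD (1.58 ± 0.39, edgeR adjusted p = 0.0595, and -0.90 ± 0.28, adjusted p = 0.264). Slc24a4, a potassium-dependent sodium-calcium exchanger, followed with 0.994, 0.921 and 2.04 FPKM in WT chow, 4.65, 3.47 and 2.84 in WT HFD and 2.73, 1.69 and 1.83 in TET2 KO HFD (1.48 ± 0.35, edgeR adjusted p = 0.055, and -0.80 ± 0.26, adjusted p = 0.266). In all 3 genes WT chow replicate 3 was the highest WT chow library and WT HFD replicate 1 the highest WT HFD library.

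WT chow replicate 3 and WT HFD replicate 1 were also the highest of their groups in the endothelial markers Cdh5 and Cldn5. In the endothelial markers Emcn, Erg and Vwf, WT HFD replicate 2 was instead the highest WT HFD library. Cdh5 had 56.1, 47.8 and 118 FPKM in WT chow, 289.7, 222 and 149 in WT HFD and 158, 82 and 84.5 in TET2 KO HFD. Cldn5 had 98.3, 80.2 and 263 in WT chow, 445, 347 and 284 in WT HFD and 237, 117 and 175 in TET2 KO HFD. Of the 14 endothelial markers, 13 were called higher and 0 lower on HFD in WT, and of the 10 listed for TET2 KO against WT on HFD, 0 were called higher and 9 lower, with a summed level of 834, 456 and 511 FPKM in TET2 KO HFD against 1549, 1206 and 881 in WT HFD. Alveolar type 1 markers moved alike, with 5 of 7 called higher on HFD in WT and 6 of 7 lower in TET2 KO HFD, among them Ager. Its FPKM was 13.2, 13.5 and 26.9 in WT chow, 50.7, 43.3 and 41.1 in WT HFD and 22.8, 12.4 and 29.5 in TET2 KO HFD. The part of these cell types in the SLC values was not tested. Between genotypes on HFD, the call of Slc9a3r2 was lost without TET2 KO HFD replicate 2 (-0.88), or WT HFD replicate 1 (-0.74). For Slc43a3 this held without TET2 KO HFD replicate 2 (-0.80), or WT HFD replicate 1 (-0.66), and for Slc24a4 without TET2 KO HFD replicate 2 (-0.67) or 3 (-0.71), or WT HFD replicate 1 (-0.59).

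Among phosphate and chloride carriers, Slc20a1, a sodium-phosphate importer present in most cells, fell from 37.2, 37.5 and 39.9 to 20.9, 21.9 and 32.4 FPKM on HFD in WT (log2 fold change -0.60 ± 0.18, edgeR adjusted p = 0.0881). It was at 45.4, 38.8 and 27.9 FPKM in TET2 KO HFD. Slc34a2, the phosphate importer of alveolar type 2 cells, had 20.7, 18.5 and 63.8 FPKM in WT chow and 72.7, 44.5 and 95.6 in WT HFD. WT chow replicate 3 lay above WT HFD replicate 2, and the test was not passed (1.05 ± 0.52, edgeR adjusted p = 0.276). Of 8 alveolar type 2 markers 3 were listed, 1 of them called higher, with summed levels of 133, 127 and 337 FPKM in WT chow and 382, 237 and 486 FPKM in WT HFD. Slc12a2, the sodium-potassium-chloride cotransporter, rose from 6.71, 6.67 and 10.6 to 14.7, 13.6 and 19.4 FPKM (1.0 ± 0.23, edgeR adjusted p = 0.0532). Slc9a3r1, the other scaffold protein, fell from 77.2, 73.5 and 70.3 to 51.4, 52.5 and 67.4 FPKM (-0.36 ± 0.14, edgeR adjusted p = 0.142), opposite in direction to Slc9a3r2. It was at 80.8, 82.5 and 70.2 FPKM in TET2 KO HFD (0.45 ± 0.16, adjusted p = 0.282). The diet call of Slc9a3r1 was lost without WT HFD replicate 1 (-0.29) or 2 (-0.30), or WT chow replicate 1 (-0.33) or 2 (-0.36), and its genotype call without TET2 KO HFD replicate 1 (0.42) or 2 (0.41), or WT HFD replicate 1 (0.38) or 2 (0.40). Slc20a1 lost its genotype call (0.58 ± 0.24) without TET2 KO HFD replicate 1 (0.41) or 2 (0.55), or WT HFD replicate 1 (0.46) or 2 (0.49).

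Metal carriers were split. Slc39a14, an importer of zinc, iron and manganese, fell from 4.08, 5.03 and 4.8 FPKM in WT chow to 3.58, 2.96 and 2.91 in WT HFD (log2 fold change -0.55 ± 0.14, edgeR adjusted p = 0.0599). Its close relative Slc39a8 rose from 1.34, 1.04 and 1.84 to 2.71, 2.21 and 2.79 FPKM (0.87 ± 0.23, edgeR adjusted p = 0.0649). The zinc importer Slc39a4 rose from 2.62, 3.23 and 3.24 to 5.57, 3.81 and 6.54 FPKM (0.82 ± 0.22, edgeR adjusted p = 0.0693). The groups did not overlap for any of the 3. Of 3 peptide carriers listed, 1 rose and 2 fell. Slc15a4, a lysosomal carrier of histidine and peptides, rose from 12.2, 11.7 and 9.78 to 14.4, 12.9 and 14.1 FPKM without overlap (0.30 ± 0.12, edgeR adjusted p = 0.163), a call lost without WT HFD replicate 1 (0.27) or 3 (0.29), or WT chow replicate 2 (0.33) or 3 (0.21). Slc15a2, the peptide importer known from kidney and lung epithelium, fell from 16.6, 23.1 and 14.8 to 4.61, 7.64 and 8.51 FPKM (-1.38 ± 0.27, edgeR adjusted p = 0.0406), and Slc15a3, a lysosomal peptide and histidine carrier of immune cells, from 38.9, 70.8 and 49.6 to 20.4, 22.1 and 39.6 FPKM (-0.95 ± 0.32, edgeR adjusted p = 0.107). For Slc15a3 the groups overlapped and the call was lost without WT HFD replicate 1 (-0.78) or 2 (-0.82), or WT chow replicate 2 (-0.69).

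Among mitochondrial carriers, Slc25a25, which moves ATP-magnesium against phosphate, fell from 12, 13.6 and 13.8 to 6.81, 8.92 and 9.35 FPKM on HFD in WT (log2 fold change -0.65 ± 0.15, edgeR adjusted p = 0.0519). Slc25a18, a glutamate carrier, fell from 2.7, 4.52 and 4.11 to 0.912, 1.12 and 1.83 FPKM (-1.55 ± 0.33, edgeR adjusted p = 0.0455), and Slc25a34 from 0.461, 1.37 and 1.2 to 0.0923, 0.123 and 0.201 FPKM (-2.87 ± 0.51, edgeR adjusted p = 0.037). None of these had overlapping groups. In the nucleotide sugar family, the largest called rise was that of Slc35g2 (0.78 ± 0.28, edgeR adjusted p = 0.122), a call lost without WT HFD replicate 1 (0.56), or WT chow replicate 1 (0.59) or 2 (0.80). Slc35d2 rose by 0.49 ± 0.16 on the log2 scale (edgeR adjusted p = 0.105), a call lost without WT HFD replicate 2 (0.38), or WT chow replicate 3 (0.42). Slc35e2 fell from 6.94, 6.63 and 7.17 to 3.83, 4.19 and 3.69 FPKM (-0.82 ± 0.11, edgeR adjusted p = 0.0357) and Slc35d1, a Golgi and endoplasmic reticulum carrier of UDP-sugars, from 4.27, 4.21 and 3.71 to 2.15, 2.73 and 3.07 FPKM (-0.61 ± 0.16, edgeR adjusted p = 0.0627). Among organic ion carriers, Slc22a4, which imports ergothioneine, rose from 0.348, 0.224 and 0.251 to 0.593, 0.693 and 1.03 FPKM (1.48 ± 0.33, edgeR adjusted p = 0.0476). Its neighbour on chromosome 11, the carnitine importer Slc22a5, fell from 11.4, 10.8 and 11.3 to 9.56, 8.91 and 8.24 FPKM (-0.32 ± 0.11, edgeR adjusted p = 0.113). The call of Slc22a5 was lost without WT HFD replicate 2 (-0.32) or 3 (-0.27), or WT chow replicate 1 (-0.31) or 3 (-0.31).

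Between TET2 KO and WT, the SLC genes listed on both diets had opposite directions on chow and on HFD, as had nearly all genes so listed. The 2 genotype comparisons share no library. Of the 21 SLC genes listed on chow, 14 were also listed on HFD, and all 14 had opposite directions on the 2 diets; of all genes listed in both, 457 of 461 (99.1%) did. The estimate was lower in TET2 KO on chow and higher on HFD for 11 of them, and the reverse for 3. Of the calls on chow, 2 were higher and 14 lower, 4 and 10 under TMM normalization and 6 and 8 with size factors recomputed on the listed genes, which moved the median of all listed genes by 0.101 on the log2 scale. Other cell types moved with genotype on chow. Of 8 airway markers 6 were called lower in TET2 KO, with a summed level of 2386 to 3139 FPKM against 4367 to 5760 FPKM in WT, as were 4 of 6 mesothelial markers (summed level 0.674 to 1.30 against 1.21 to 8.18 FPKM) and 4 of 11 fibroblast and smooth muscle markers, while 5 of 10 T cell markers were called higher. Their part in the SLC values was not tested. Slc16a11 (chr11:70212752-70216417), a monocarboxylate carrier, had 6.18, 7.13 and 8.82 FPKM in WT chow, 2.53, 3.71 and 2.38 in TET2 KO chow, 2.72, 3.03 and 2.98 in WT HFD and 8.82, 3.79 and 4.17 in TET2 KO HFD. TET2 KO libraries lay below all WT libraries on chow (log2 fold change -1.36 ± 0.23, edgeR adjusted p = 1.0) and above them on HFD (0.95 ± 0.33, adjusted p = 0.279). The level was lower on HFD than on chow in WT (-1.34 ± 0.17, edgeR adjusted p = 0.0357) and higher in TET2 KO (0.96 ± 0.36, adjusted p = 0.828). The HFD genotype call was lost without WT HFD replicate 1 (0.90) or 2 (0.98) and the diet call in TET2 KO without TET2 KO HFD replicate 1 (0.47), or TET2 KO chow replicate 1 (0.88) or 3 (0.84). Its neighbour Slc16a13, named after its values were seen, lies 371 bases away and was listed only on chow (-0.69 ± 0.31, edgeR adjusted p = 1.0), which did not pass.

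**Figure D3:**
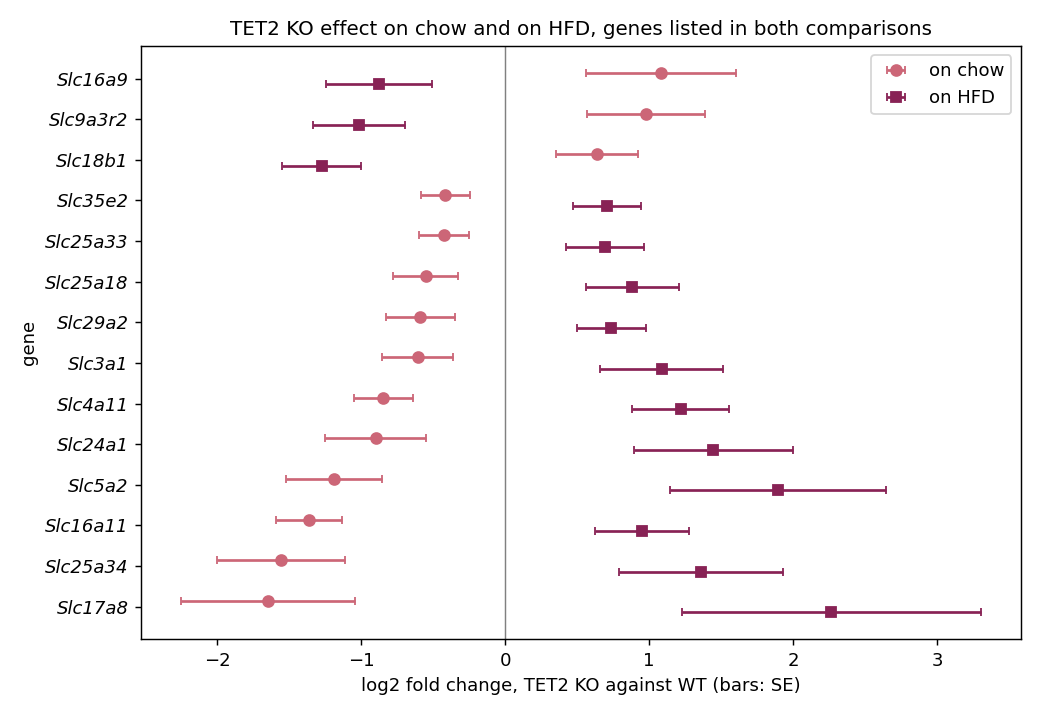
Log2 fold change of TET2 KO against WT (x axis, bars SE) on chow (circles) and on HFD (squares) for the 14 SLC genes listed in both comparisons (y axis). For every gene the estimates lie on opposite sides of 0, with 11 genes lower on chow and higher on HFD and 3 (Slc18b1, Slc9a3r2 and Slc16a9) the other way round.

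Slc4a11 (chr2:130684113-130697519), a transporter of the bicarbonate family known from corneal endothelium, was likewise lower in TET2 KO on chow and higher on HFD, with 2.69, 3.09 and 2.16 FPKM in WT chow, 1.39, 1.75 and 1.28 in TET2 KO chow, 0.941, 0.981 and 0.699 in WT HFD and 2.74, 2.21 and 1.11 in TET2 KO HFD. No pair of compared groups overlapped (log2 fold change -0.85 ± 0.20 on chow, edgeR adjusted p = 1.0, 1.22 ± 0.34 on HFD, adjusted p = 0.261, and -1.59 ± 0.21 for diet in WT, adjusted p = 0.0357). Slc29a2, an equilibrative nucleoside transporter, had FPKM of 2.97, 2.21 and 1.97 in WT chow, 1.41, 1.9 and 1.46 in TET2 KO chow, 1.11, 1.19 and 1.63 in WT HFD and 2.59, 2.09 and 1.84 in TET2 KO HFD. Slc24a1, a sodium-calcium exchanger known from rod cells, had FPKM of 2.1, 2.7 and 3.4 in WT chow, 0.786, 1.54 and 2.08 in TET2 KO chow, 0.216, 0.524 and 0.964 in WT HFD and 1.55, 2.21 and 0.846 in TET2 KO HFD, with overlap between the genotypes on HFD. In these 3 genes the mean was highest in WT chow and lowest in WT HFD. In log2 fold change, TET2 KO against WT gave -0.59 ± 0.24 on chow and 0.74 ± 0.24 on HFD for Slc29a2. For Slc24a1 it gave -0.90 ± 0.35 and 1.45 ± 0.55. The chow call of Slc29a2 was lost without TET2 KO replicate 1 or 3, or WT replicate 1 or 2. That of Slc24a1 was lost without TET2 KO replicate 1 or 2, or WT replicate 2 or 3. On HFD both genes lost the call without TET2 KO replicate 1, or WT replicate 1 or 2, and Slc24a1 also without TET2 KO replicate 2.

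Slc18b1, a vesicular polyamine transporter on chromosome 10 (chr10:23796986-23827968), was one of the 3 genes with the reverse order. Its FPKM was 0.651, 1.0 and 1.17 in WT chow, 1.83, 1.3 and 1.26 in TET2 KO chow, 2.42, 1.41 and 1.64 in WT HFD and 0.901, 0.601 and 0.749 in TET2 KO HFD. TET2 KO lay below WT on HFD in every library (-1.27 ± 0.28, edgeR adjusted p = 0.261), and the difference on chow did not pass (0.64 ± 0.28, edgeR adjusted p = 1.0). It was higher on HFD in WT (0.96 ± 0.30, edgeR adjusted p = 0.095), a call lost without WT HFD replicate 1 (0.70), and lower on HFD in TET2 KO (-0.96 ± 0.26, adjusted p = 0.82). Slc16a9, a carnitine exporter, had 3.01, 2.59 and 6.6 FPKM in WT chow and 15.2, 5.45 and 5.12 in TET2 KO chow, where replicate 1 was far above the others, with 11.5, 10.4 and 6.64 in WT HFD and 8.08, 4.08 and 3.25 in TET2 KO HFD. Slc29a3, the lysosomal nucleoside transporter, was not listed for genotype on chow and had FPKM of 5.13, 4.88 and 4.26 in WT chow, 5.81, 5.42 and 6.12 in TET2 KO chow, 6.11, 5.26 and 6.44 in WT HFD and 3.17, 4.29 and 4.85 in TET2 KO HFD. It was called lower in TET2 KO on HFD (-0.53 ± 0.19, edgeR adjusted p = 0.281), a call lost without WT HFD replicate 1 (-0.51) or 3 (-0.47).

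**Figure D4:**
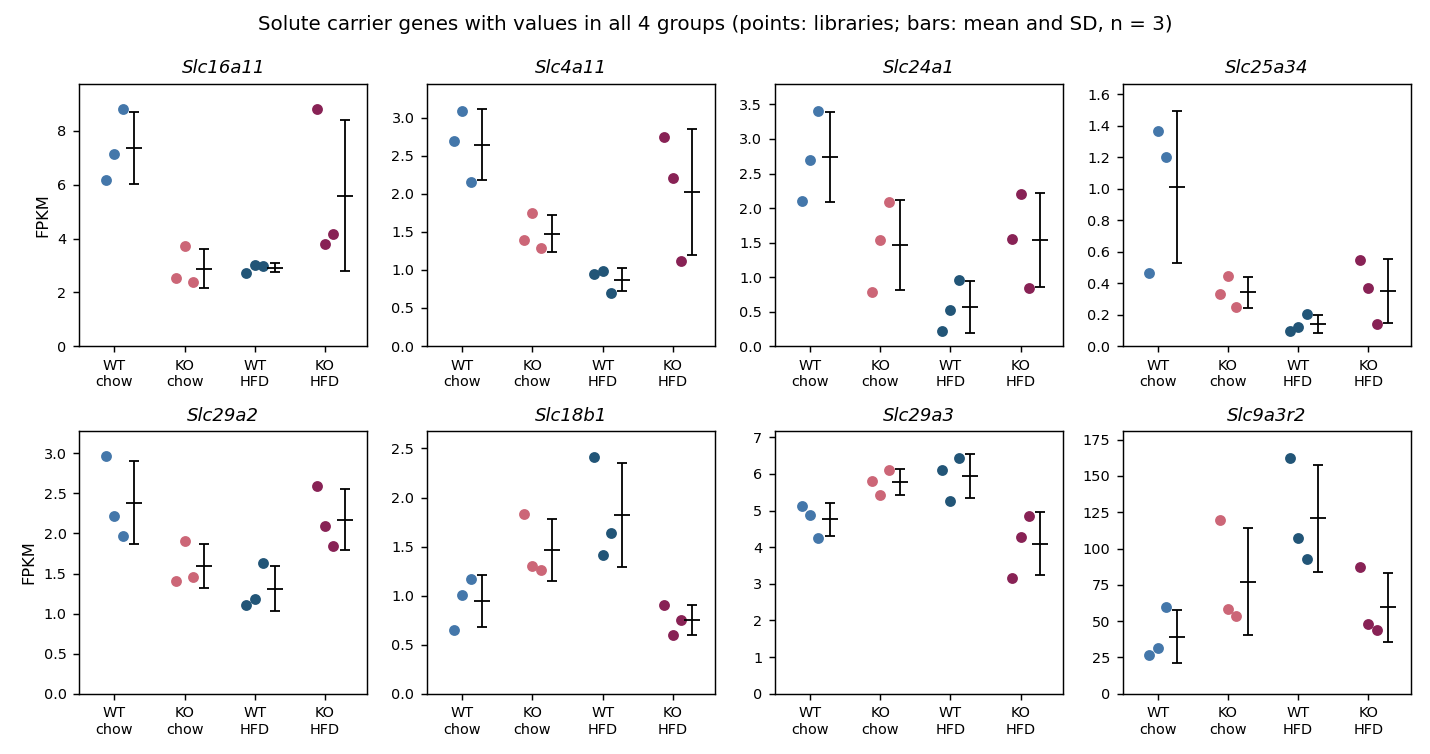
FPKM (y axis, linear and starting at 0) of 8 SLC genes with values in all 4 groups (x axis); points are libraries and bars mean and SD (n = 3). Slc16a11, Slc4a11, Slc24a1, Slc25a34 and Slc29a2 have lower means in WT HFD than in WT chow or TET2 KO HFD, while Slc18b1, Slc29a3 and Slc9a3r2 have their highest mean in WT HFD.

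A fit over all 4 groups tested whether the TET2 KO effect differed between the diets, for the genes with values in all 12 libraries. Of 975 such genes 55.4% had an adjusted interaction p under 0.05, and of the 24 SLC genes among them 15 did. A gene enters this fit by being listed in tables that already contrast these groups, so the counts describe the selection. These p-values were adjusted over the 975 fitted genes only and cannot be set beside the adjusted values of the single comparisons, which cover the authors' whole test family. The interaction, the log2 effect of TET2 KO on HFD minus that on chow, was 2.30 ± 0.44 for Slc16a11 (SE, edgeR adjusted p = 0.0141), 2.05 ± 0.43 for Slc4a11 (adjusted p = 0.0141), 1.31 ± 0.36 for Slc29a2 (adjusted p = 0.0154) and -1.92 ± 0.43 for Slc18b1 (adjusted p = 0.0141). The other 9 genes, which entered through both diet comparisons, had no such call. Among these, Slc7a2 gave 0.05 ± 0.52 and Slc6a4 -0.27 ± 0.40.

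TET2 acts on cytosines that are followed by guanine, so the windows of 250 bases before a RefSeq start of Slc16a11 (chr11:70213660-70213909, plus strand) and Slc18b1 (chr10:23796736-23796985, plus strand), which were listed in all 4 comparisons with opposite orders, are shown with each CG in capitals (RefSeq, GRCm38.p6, 5′ to 3′ along the gene).
Slc16a11: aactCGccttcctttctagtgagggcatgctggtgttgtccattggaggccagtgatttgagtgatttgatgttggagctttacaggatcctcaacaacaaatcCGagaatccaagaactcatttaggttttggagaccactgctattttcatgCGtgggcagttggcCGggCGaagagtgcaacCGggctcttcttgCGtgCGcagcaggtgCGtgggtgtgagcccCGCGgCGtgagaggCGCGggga
Slc18b1: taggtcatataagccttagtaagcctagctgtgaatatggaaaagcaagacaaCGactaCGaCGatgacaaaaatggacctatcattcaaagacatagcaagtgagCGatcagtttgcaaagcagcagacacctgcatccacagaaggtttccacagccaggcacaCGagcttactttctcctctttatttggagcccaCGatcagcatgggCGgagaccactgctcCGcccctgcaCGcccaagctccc
The RefSeq start used for Slc16a11, base 70213910, lies downstream of the gene start in the deposited tables, base 70212752, so this window lies inside the gene as the tables give it. That of Slc18b1 ends just before the start in the tables. The Slc16a11 window holds 14 CG dinucleotides, and that of Slc18b1 holds 9. As many as 14 occur in 29.4% of all 32851 windows and as many as 9 in 40.3%, with a median of 6 over all windows and 11 over the 154 windows of SLC genes. At least 1 occurs in 92.1% of all windows. No methylation was measured in these cells here.

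Diet within TET2 KO mice gave mostly lower levels on HFD, but this depended on scaling. Under TMM normalization, the median of all listed genes moved by 0.248 on the log2 scale and the SLC calls became 8 higher and 7 lower in place of 5 and 21, and with size factors recomputed on the listed genes they became 8 and 6 (shift 0.298). Slc6a4, the serotonin transporter, had 11.4, 13.3 and 8.2 FPKM in TET2 KO chow and 4.29, 7.24 and 4.6 in TET2 KO HFD (-1.03 ± 0.27, edgeR adjusted p = 0.82). In WT it had 9.09, 13.1 and 11.4 FPKM on chow and 6.71, 4.71 and 8.46 on HFD (-0.75 ± 0.24, adjusted p = 0.0939), so every HFD library lay below every chow library in each genotype. The arginine importer Slc7a2 had 14.1, 28.4 and 17.3 FPKM in WT chow, 9.85, 6.17 and 13.9 in WT HFD, 19.1, 18.9 and 13 in TET2 KO chow and 5.93, 12.8 and 7.7 in TET2 KO HFD (-0.99 ± 0.35 in WT, edgeR adjusted p = 0.123, and -0.95 ± 0.30 in TET2 KO, adjusted p = 0.828). The sodium-proton exchanger Slc9a4 had FPKM of 8.71, 20.00 and 11.9 in WT chow, 6.38, 4.8 and 7.6 in WT HFD, 12.9, 13.5 and 7.24 in TET2 KO chow and 4.67, 7.75 and 5.3 in TET2 KO HFD. It was lower on HFD in each genotype (-1.1 ± 0.32 in WT, edgeR adjusted p = 0.078, and -0.93 ± 0.29 in TET2 KO, adjusted p = 0.828). Its neighbour on chromosome 1, Slc9a2, moved alike (-0.81 ± 0.24 and -0.92 ± 0.34). The zinc importer Slc39a12 had FPKM of 0.799, 1.94 and 1.46 in WT chow, 0.523, 0.303 and 0.723 in WT HFD, 1.31, 1.41 and 0.556 in TET2 KO chow and 0.501, 0.577 and 0.219 in TET2 KO HFD (-1.43 ± 0.43, edgeR adjusted p = 0.0835, and -1.34 ± 0.47, adjusted p = 0.828).

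In these genes WT chow replicate 2 was the highest WT chow library and TET2 KO HFD replicate 2 the highest TET2 KO HFD library. The same libraries were highest in the macrophage markers Marco, Siglecf, Mrc1 and Chil3. In Csf1r, Ccr2 and Ly6c2, the markers called higher on HFD in WT, WT chow replicate 3 was instead the highest WT chow library. In WT chow Csf1r had 61.8, 65.95 and 80.45 FPKM, Ccr2 5.95, 4.42 and 6.79 and Ly6c2 14.9, 10.3 and 18.1. Marco had 20.6, 46 and 35.8 FPKM in WT chow, 14.1, 12.8 and 16.1 in WT HFD, 32.9, 49.1 and 29.5 in TET2 KO chow and 13.8, 30.8 and 12.3 in TET2 KO HFD. Siglecf, of alveolar macrophages, had 43.4, 77.3 and 47.1 in WT chow, 27.9, 18.6 and 35.4 in WT HFD, 50.9, 56.6 and 36.7 in TET2 KO chow and 20.6, 41.4 and 30.3 in TET2 KO HFD. Of 10 monocyte and macrophage markers, 7 were listed for diet in WT (3 called higher, among them Ccr2, and 4 lower) and 6 for diet in TET2 KO (0 higher and 4 lower), with summed levels of 1706 to 3134 FPKM in WT chow, 985 to 1746 in WT HFD, 5529 to 8295 in TET2 KO chow and 2764 to 4960 in TET2 KO HFD, each over the markers listed in that comparison. Their part in the SLC values was not tested. In WT, the call of Slc6a4 was lost without WT chow replicate 2 (-0.63) and that of Slc7a2 without WT HFD replicate 1 (-0.99) or 2 (-0.74), or WT chow replicate 2 (-0.65). In TET2 KO, the call of Slc9a2 was lost without TET2 KO HFD replicate 1 (-0.71) or 3 (-0.76), or TET2 KO chow replicate 1 (-0.86) or 2 (-0.80) and that of Slc39a12 without TET2 KO HFD replicate 3 (-1.02), or TET2 KO chow replicate 1 (-1.18) or 2 (-1.11).

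**Figure D5:**
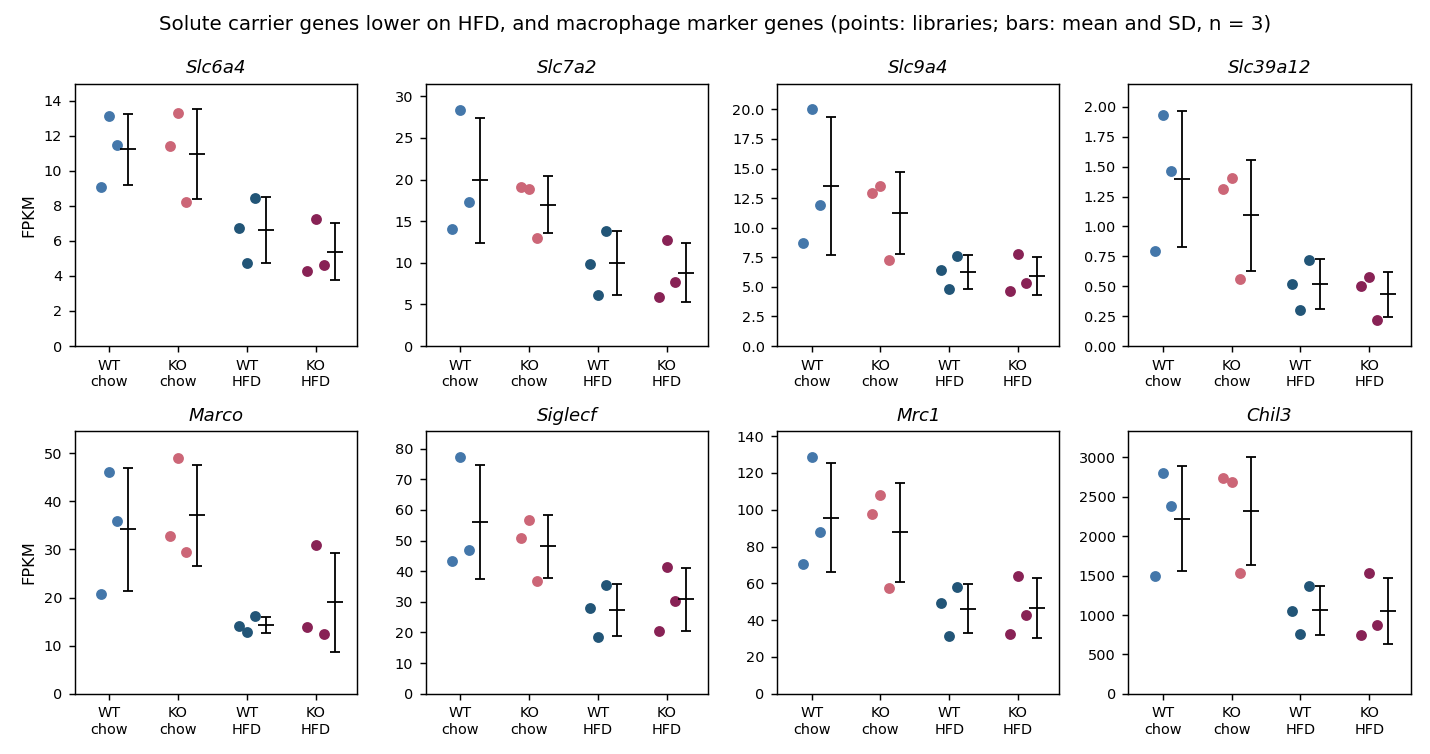
FPKM (y axis, linear and starting at 0) in all 4 groups (x axis) of Slc6a4, Slc7a2, Slc9a4 and Slc39a12 (top) and of the macrophage markers Marco, Siglecf, Mrc1 and Chil3 (bottom); points are libraries and bars mean and SD (n = 3). WT chow replicate 2 is the highest WT chow library in all 8 panels, and mean levels are lower on HFD than on chow in each genotype. The markers Csf1r, Ccr2 and Ly6c2, called higher on HFD in WT, are not shown.

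Across the diet comparisons, which share no library, 14 SLC genes were listed in both genotypes and 9 of them (64.3%) had the same direction, beside 430 of 611 listed genes (70.4%). Slc6a12, a carrier of the osmolyte betaine, rose in both: from 0.374, 0.366 and 0.437 to 0.669, 0.737 and 1.19 FPKM in WT (1.14 ± 0.29, edgeR adjusted p = 0.0625) and from 0.184, 0.253 and 0.646 to 0.657, 0.917 and 1.08 in TET2 KO (1.3 ± 0.48, adjusted p = 0.828), where the call was lost without TET2 KO HFD replicate 2 (1.27) or 3 (1.12), or TET2 KO chow replicate 1 (0.98) or 2 (1.10). Genes listed for diet in TET2 KO but not in WT included Slc1a3, a glutamate and aspartate importer, which fell from 0.84, 1.21 and 0.675 to 0.33, 0.331 and 0.412 FPKM without overlap (-1.34 ± 0.26, edgeR adjusted p = 0.82). The nucleoside transporter Slc29a1 fell from 21.3, 23.4 and 16.1 to 12.3, 17 and 13.3 FPKM with overlap (-0.51 ± 0.20, edgeR adjusted p = 0.837), a call lost without TET2 KO HFD replicate 1 (-0.42) or 3 (-0.47), or TET2 KO chow replicate 1 (-0.47) or 2 (-0.39).

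Transporters outside the Slc symbols and partner subunits gave values beside these. Of 50 solute carriers with other symbols, 15 were listed for diet in WT, with 5 called higher and 10 lower. Slco2a1, a prostaglandin transporter of ECs, rose from 8.96, 9.95 and 19.4 to 46.2, 36.3 and 26.1 FPKM (log2 fold change 1.51 ± 0.35, edgeR adjusted p = 0.0519) and was at 26.6, 16.1 and 12.9 FPKM in TET2 KO HFD. Ucp1, the uncoupling carrier of brown fat, fell from 3.11, 7.24 and 6.82 to 0.549, 1.1 and 1.36 FPKM (-2.52 ± 0.45, edgeR adjusted p = 0.0368). For TET2 KO against WT, 2 of these carriers were listed on chow and both called lower, and on HFD 3 of 7 were called higher and 4 lower. For diet in TET2 KO, where the SLC calls depended on scaling, 1 of 7 was called higher and 6 lower. Over all listed genes, 42.4% were called higher and 49.2% lower for diet in WT. For diet in TET2 KO the shares were 29.3% and 47.7%. For TET2 KO against WT they were 30.6% and 46.0% on chow and 43.1% and 39.1% on HFD. Of 4 accessory subunits only Emb, the partner of monocarboxylate carriers, was listed, falling from 45.4, 33.6 and 45.8 to 26.2, 32.6 and 30.3 FPKM on HFD in WT (-0.48 ± 0.16, edgeR adjusted p = 0.109). Of a list of 27 SLC genes of interest in ECs and lung, chosen with earlier results of these data known, 16 were listed in a table; Slc2a3, Slc3a2 and Slc40a1 were among the 11 that were not.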

How the data were processed

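Poly(A) RNA libraries from 12 mice were sequenced as read pairs. The submitters' processing notes and the methods name mm10, HISAT2, featureCounts and DESeq2; versions, annotation release and strand setting are not given in the sources used here. The authors deposited raw counts, normalized counts (counts divided by a size factor, a signal comparable within a table), FPKM, group means of the normalized counts, log2 fold changes, p-values before and after adjustment and gene annotation. The authors' log2 fold changes and p-values are their own comparisons and were not used as results; their p-values served only to find how many genes were tested (18463, 23768, 18703 and 19511). All per-sample columns were mapped (0 left out).

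Listed counts were tested with edgeR 4.0.16 (R 4.3.3) quasi-likelihood fits on the groups compared, with the authors' size factors and no filter, and Benjamini-Hochberg values over the authors' test family; genes the authors left out of adjustment have none. Where 1 group was compared with another, 3 against 3 libraries, an exact permutation test could not go below p = 0.1. The interaction was fitted over 4 groups with library totals and adjusted over its 975 genes only. Alternatives were DESeq2 1.42.0, limma-trend (limma 3.58.1, pseudocount 1), TMM, other size factors, a mean of at least 10, the replicate block, other thresholds and leaving out each library. The scripts were tested on simulated data. Python 3.11.15 made summaries. Named genes were called genes whose higher group averaged 50 or more normalized counts, without overlap between groups, and with the largest change (12 per direction for diet in WT, 6 elsewhere, 4 per substrate group), the 10 with the highest FPKM, those in at least 3 tables or with an interaction call, and a list of 27. Members, lists and motifs were chosen with earlier results of these data known. Values of some genes are not reported here.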

Additional observations from a re-analysis of the deposited data

Results flagged for a closer look

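In 15 of the 24 SLC genes fitted, the effect of TET2 KO differed between chow and HFD by the interaction test over all 12 libraries (edgeR p adjusted over the 975 fitted genes, from 0.0141 to 0.0328). Of all 975 fitted genes 540 (55.4%) were called, so the SLC count sits near the background. The values are the log2 effect of TET2 KO on HFD minus that on chow. A positive difference, from a gene lower in TET2 KO on chow and higher on HFD, was found for Slc16a11 (2.30), Slc4a11 (2.05), Slc25a34 (2.92), Slc29a2 (1.31), Slc5a2 (3.07), Slc35e2 (1.11), Slc25a18 (1.43), Slc3a1 (1.68), Slc24a1 (2.34), Slc17a8 (3.90) and Slc25a33 (1.12). A negative difference was found for Slc18b1 (-1.92), Slc9a3r2 (-2.0), Slc29a3 (-0.82) and Slc16a9 (-1.97). Slc5a2, the sodium-glucose cotransporter known from kidney, was highest in TET2 KO HFD replicate 1, with 0.323, 0.329 and 0.407 FPKM in WT chow, 0.113, 0.133 and 0.218 in TET2 KO chow, 0.128, 0.0873 and 0.132 in WT HFD and 0.898, 0.29 and 0.0997 in TET2 KO HFD. Slc17a8, a vesicular glutamate transporter, had no library above 0.144 FPKM. The call of Slc16a9 was lost without WT chow replicate 1 (-1.79) or 2 (-1.73), or TET2 KO chow replicate 1 (-1.26), or WT HFD replicate 1 (-1.81) or 2 (-1.90), or TET2 KO HFD replicate 2 (-1.82) or 3 (-1.72). That of Slc17a8 was lost without WT chow replicate 2 (3.53), or TET2 KO HFD replicate 1 (3.16), that of Slc25a33 without TET2 KO chow replicate 1 (1.03), or WT HFD replicate 1 (0.92), or TET2 KO HFD replicate 2 (0.85) and that of Slc29a3 without WT HFD replicate 1 (-0.79). Every gene here was selected by a table that contrasts the same groups, so the test does not stand apart from the selection. Groups of 3 libraries were not tested for outlying samples.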

How the results depend on the processing

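Calls at an unadjusted p under 0.05 numbered 16 for genotype on chow, 111 for diet in WT, 52 for genotype on HFD, and 26 for diet in TET2 KO. The interaction, called by a p under 0.05 adjusted over its 975 genes, had 15. With an adjusted p under 0.05 the calls of the single comparisons were 0, 27, 0 and 0, and with a log2 fold change over 1 as well 8, 50, 14 and 7. Leaving out each library gave 5 to 12, 80 to 97, 16 to 54, 10 to 24 and, for the interaction by that adjusted p, 12 to 15. The fewest came without WT chow replicate 2 (5 and 80), WT HFD replicate 1 (16) and TET2 KO chow replicate 1 (10). Adjusted calls for diet in WT fell to 0 without WT chow replicate 2 or any WT HFD library. TMM gave 15 and recomputed size factors 14 for diet in TET2 KO. For the interaction, TMM gave 12 calls in place of 15. DESeq2 gave 20, 118, 63 and 31. The labels number the replicates and do not say whether same-numbered mice were handled together. Same-numbered libraries deviated from their group means with correlations of -0.139 to 0.212, which cannot settle this. With the replicate block the calls were 9 on chow, 93, 47 and 24, with no adjusted call for diet in WT. Of 163 gene values, none changed sign under 946 refits with another method or 1068 without a library; 73 and 252 of these lost a call. Few genes had low counts: 2, 6, 1 and 2 listed SLC genes had a mean under 10 normalized counts. Leaving out all genes under that mean gave 105 calls for diet in WT in place of 111. The adjusted calls there went from 27 to 19.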
